A study of Homo sapiens with 6 samples.

Results

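Activins and inhibins are secreted dimers of the TGF-beta family, and their genes, antagonists and receptors were described here in BCPAP cells, a cell line from a human papillary thyroid carcinoma. The 10 genes were the beta subunits INHBA, INHBB, INHBC and INHBE, the alpha subunit INHA, the antagonists FST and FSTL3, and the receptors ACVR1B, ACVR2A and ACVR2B. All probe sets that the platform annotation paired with 1 of these symbols alone were taken, which gave 22 of the 49395 probe sets on the Affymetrix PrimeView array. INHBE was chosen by its measured log2 fold change between the groups compared here, and the other 9 genes were added because they belong to the same family or pathway. INHBE is therefore described with no test.

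Cells of both groups were transduced with lentivirus and, from 48 hours later, kept in puromycin for 7 days. The virus carried a short hairpin RNA either to CSF2, which encodes the cytokine GM-CSF (shCSF2, 3 arrays), or without a target (shCtrl, 3 arrays). The arrays are called biological replicates in the labels. How many hairpins were used per gene is not stated in the labels, so the effect of targeting CSF2 and that of a single construct cannot be told apart.

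A beta subunit pairs with another to make an activin, or with the alpha subunit to make an inhibin. Activins bind the type II receptors encoded by ACVR2A and ACVR2B, which then engage a type I receptor such as the ACVR1B product ALK4, and the activated complex phosphorylates SMAD2 and SMAD3. Follistatin (FST) and follistatin-like 3 (FSTL3) trap activins outside the cell. Activin A, the INHBA dimer, is made by many epithelial and stromal cells and by many carcinomas, whereas INHBC and INHBE are best known as liver genes. INHBE is also known as a gene that cells raise under stress of the endoplasmic reticulum or amino acid shortage.

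INHBA and FST were the members with more than 1 probe set whose every probe set passed the test described below, and they passed in opposite directions. The 250 bases upstream of their annotated starts are shown so that both control regions can be seen beside those values. They are from RefSeq (GRCh38.p14), read 5′ to 3′ on the strand of the gene. INHBA lies on the minus strand at chr7:41703091-41703340, and FST on the plus strand at chr5:53480379-53480628. Capitals mark a TATA box in INHBA and an AP-1 element in FST.
INHBA: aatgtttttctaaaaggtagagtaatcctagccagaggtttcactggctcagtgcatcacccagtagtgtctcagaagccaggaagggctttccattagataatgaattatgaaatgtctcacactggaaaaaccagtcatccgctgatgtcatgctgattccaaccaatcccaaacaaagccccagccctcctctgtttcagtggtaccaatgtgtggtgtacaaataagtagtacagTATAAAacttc
FST: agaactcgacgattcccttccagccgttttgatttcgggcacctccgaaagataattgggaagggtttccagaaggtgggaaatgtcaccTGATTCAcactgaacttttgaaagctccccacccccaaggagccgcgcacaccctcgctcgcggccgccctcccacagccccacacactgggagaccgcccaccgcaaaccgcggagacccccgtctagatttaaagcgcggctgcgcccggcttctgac
A window was matched for 9 of the 10 members, all but INHBE, and ACVR1B had 2 windows. On both strands, the windows were searched for the C/EBP-ATF response element TGATGNAA, the cAMP response element TGACGTCA and its shorter core TGACG, the TATA box TATAAA and the AP-1 element TGANTCA. The core lies within the full cAMP response element. Of 35116 such windows over all genes, 3.14% held TGATGNAA, 1.65% TGACGTCA, 21.2% TGACG, 10.7% TATAAA and 6.57% TGANTCA. The members' windows held neither of the first pair. INHA held TGACG and an AP-1 element, FST an AP-1 element, and INHBA and FSTL3 a TATA box, which in FSTL3 was on the opposite strand. These are matches of letters within the windows only.

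Array medians were 5.77 to 5.79 on the log2 scale, and across probe sets, which are not independent replicates, arrays of a group correlated at r = 0.998 and arrays of different groups at r = 0.994. The level of CSF2 is not analysed here, as 0 probe sets were paired with it, and it gives no check of the labels. Of 10 thyroid and epithelial marker genes, named here with their values known, NKX2-1, PAX8 and KRT7 had means of 8.07 to 11.9 over the groups, whereas TG, TSHR, SLC5A5 and KRT19 were dim, here a mean log2 value under 5 in both groups. NKX2-1 was the only one of the 10 that passed the test. Of all genes 32.7% passed, which is the background for each marker list here. NKX2-1 fell by 0.42 on the log2 scale, from 9.78 to 9.37, by both of its probe sets. The mean level of 5 fibroblast markers was 5.17 to 5.22 over the shCSF2 arrays and 5.32 to 5.47 over the shCtrl arrays. Of these 5, LUM and DPT were dim, and THY1 alone passed the test, from 8.74 down to 8.13. The mean level of 4 endothelial markers was 5.29 to 5.43 over the shCSF2 arrays and 5.44 to 5.54 over the shCtrl arrays, and TEK alone passed, lower by 1 dim probe set (limma adjusted p = 0.046), with a log2 fold change of 0.0065 when its 3 probe sets were averaged. The mean level of 5 leukocyte markers was 4.18 to 4.26 against 4.26 to 4.30. Of all 18132 genes, each taken singly, 4460 had all shCSF2 arrays below all shCtrl arrays. The shCSF2 arrays lay below the shCtrl arrays in the mean level of each of these 3 lists, for which that share is no exact background. For the leukocyte markers, 4 of them dim, this was only just so (4.257 against 4.260). The mean level of the thyroid and epithelial markers was 6.57 to 6.63 over the shCSF2 arrays and 6.63 to 6.67 over the shCtrl arrays, with a slight overlap. Of 4 hepatocyte markers, SERPINA1 was higher and TTR lower, and ALB and APOA1 were dim. The part of these markers in the results below was not tested. The 3′ minus 5′ difference of the GAPDH control probe sets, a measure of RNA integrity, was -0.01 ± 0.01 in shCSF2 and -0.03 ± 0.01 in shCtrl arrays (log2, mean ± SD, n = 3), with no overlap between groups and an exact two-sided permutation p of 0.1, the smallest that 3 against 3 arrays allow. For ACTB it was 0.61 ± 0.05 and 0.59 ± 0.05, with an exact permutation p of 0.6.

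The question put to the arrays was how expression changes when CSF2 is targeted. Within the family, INHBE transcript was higher in shCSF2 cells while INHBA transcript fell, FST, ACVR2A and ACVR2B rose by small amounts, and INHBB, INHBC, INHA, FSTL3 and ACVR1B did not pass. The calls of FST and ACVR2A were each lost in several other settings, and that of ACVR2B rests on 1 of its 2 probe sets. Each gene was represented by its probe set with the highest mean, and all 18132 genes were tested with limma at a Benjamini-Hochberg adjusted p of 0.05. Of the 9 members other than INHBE, 3 were higher and 1 lower. That is 4 of 9, against a background of 32.7% of all genes called, 16.7% higher and 16.0% lower. Since the members were chosen with this comparison known, nothing is read from their share. The groups did not overlap in 5 of these 9 members, against 46.7% of all genes. With INHBE, whose call is no test, the count was 5. It became 3 when shCSF2 replicate 3, shCtrl replicate 1 or shCtrl replicate 2 was left out, because FST and ACVR2A lost their calls. The median log2 fold change of the 9 members was 0.02, beside -0.03 over all genes.

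**Figure D1:**
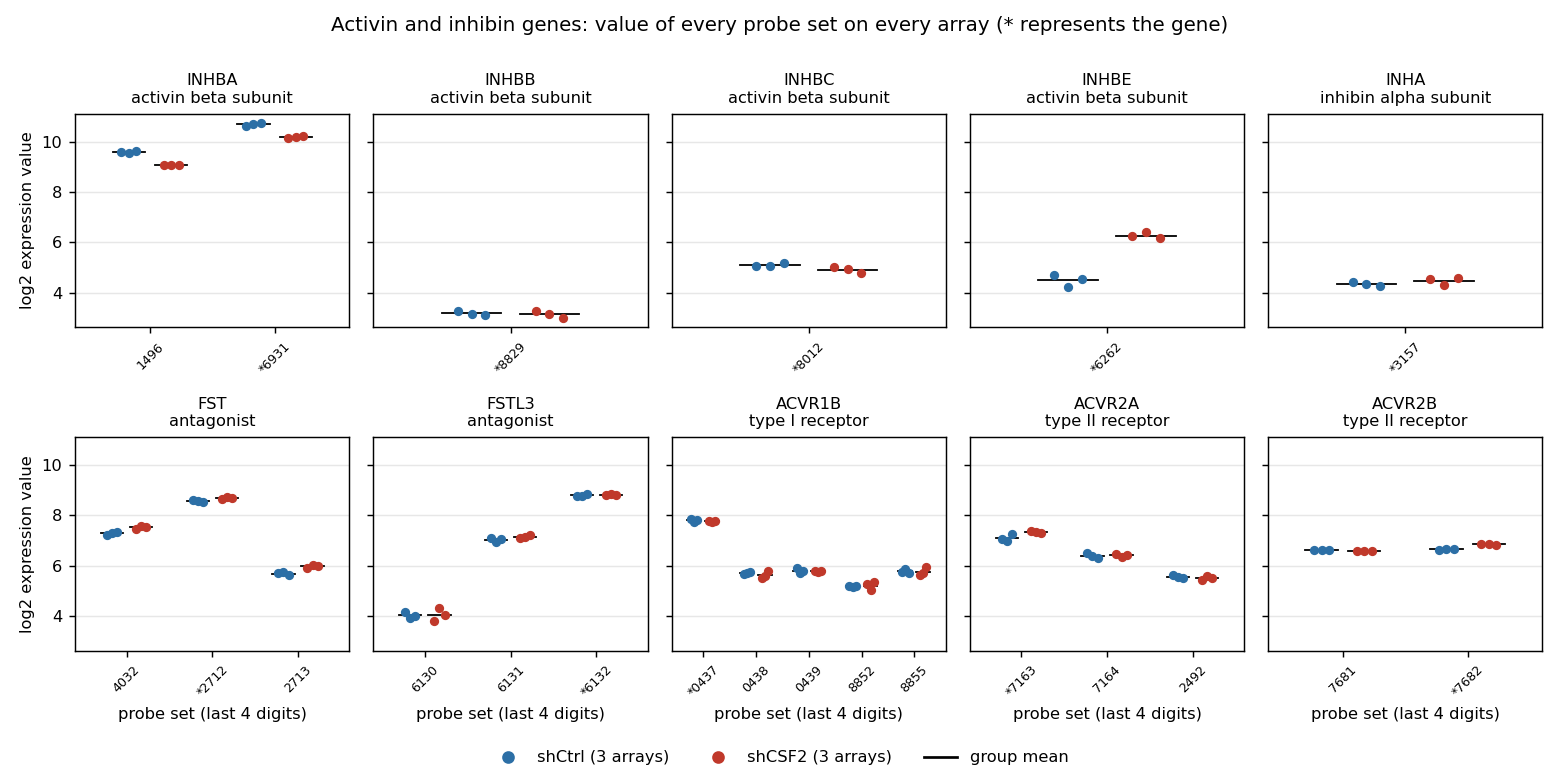
Log2 expression value (vertical axis) of each of the 22 probe sets (horizontal axis, by the last digits of the identifier) on each of the 3 shCtrl (blue) and 3 shCSF2 (red) arrays, in 1 panel per gene, with group means as lines and an asterisk at the probe set that represents the gene. INHBE stands higher in shCSF2 and both INHBA probe sets stand lower, while most other probe sets lie at nearly the same level in both groups; levels of different probe sets are not comparable, since probes differ in how brightly they bind.

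Among the activin beta subunits, INHBE (probe set 11736262_at, its only one) read 6.23, 6.40 and 6.16 on the shCSF2 arrays and 4.69, 4.20 and 4.55 on the shCtrl arrays (log2 values of replicates 1, 2 and 3). The lowest shCSF2 array was far above the highest shCtrl array, and the shCtrl arrays were all in the dim range. The means were 6.26 ± 0.12 and 4.48 ± 0.25 (SD, n = 3), a 3.44-fold difference (log2 fold change 1.78 ± 0.13, moderated SE). The shCtrl arrays spread more than the shCSF2 arrays, with shCtrl replicate 2 the lowest. Leaving out each array in turn gave log2 fold changes between 1.64 and 1.89. INHBE ranked 2 of 18132 genes by its rise, a rank that led to its choice. With 1 probe set, no second probe set could be compared with it.

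INHBA encodes the subunit of activin A. Its probe set 11746931_a_at read 10.16, 10.21 and 10.22 in shCSF2 and 10.63, 10.70 and 10.73 in shCtrl arrays. Its other probe set, 11731496_at, read 9.07, 9.09 and 9.07 in shCSF2 and 9.59, 9.57 and 9.63 in shCtrl arrays. In both, all shCSF2 arrays lay below all shCtrl arrays, and the gap between groups was several times the spread within them. INHBA fell 1.40-fold (log2 fold change -0.49 ± 0.04, SE, limma adjusted p = 2.4e-04), and the second probe set gave -0.52 ± 0.04. The change was past the threshold in all 16 alternative settings, between -0.52 and -0.47. INHBA was thus the member with the second largest change, and 4.23% of genes had a larger absolute change. THY1 was lower in the same arrays as INHBA, as is every gene called lower here, while the median log2 fold change of the 5 fibroblast markers was -0.04. A link between THY1 and INHBA was not tested.

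INHBC, the neighbour of INHBE in the genome and a close relative, read 5.00, 4.95 and 4.78 in shCSF2 and 5.07, 5.05 and 5.19 in shCtrl arrays. All shCSF2 arrays were below all shCtrl arrays, but by less than the spread of the shCSF2 arrays. Its log2 fold change was -0.19 ± 0.07, which did not pass (limma adjusted p = 0.074, 95% interval -0.36 to -0.03). It passed (limma adjusted p = 0.035) when genes with a mean under 5 were left out, which leaves fewer genes to adjust over. INHBC cleared that filter only through the shCtrl arrays, with group means of 4.91 in shCSF2 and 5.11 in shCtrl. Nothing is therefore read from that pass. INHBB, the subunit of activin B, was dim, with 3.00 to 3.25 in shCSF2 and 3.12 to 3.28 in shCtrl arrays. The ranges overlapped, and the log2 fold change was -0.05 (95% interval -0.22 to 0.13).

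INHA, whose product turns a beta subunit into an inhibin, was dim in both groups, with 4.52, 4.31 and 4.59 in shCSF2 and 4.43, 4.36 and 4.28 in shCtrl arrays. The groups overlapped through shCSF2 replicate 2. The log2 fold change of INHA was 0.12 ± 0.08, which did not pass (limma adjusted p = 0.30, 95% interval -0.07 to 0.31). Without shCSF2 replicate 2 it was 0.20 and passed (limma adjusted p = 0.046), so a small rise of INHA depended on that array.

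The antagonists differed from each other in their calls, a difference that was not itself tested. FST, follistatin, was measured by 3 probe sets. The brightest, 11732712_a_at, read 8.65, 8.72 and 8.70 in shCSF2 and 8.59, 8.55 and 8.55 in shCtrl arrays. Probe set 11724032_a_at read 7.47, 7.59 and 7.53 against 7.20, 7.31 and 7.32, and 11732713_at read 5.92 to 6.04 against 5.61 to 5.74. In each of the 3, every shCSF2 array was above every shCtrl array. The log2 fold changes were 0.13 ± 0.04, 0.25 ± 0.05 and 0.30 ± 0.05 in the same order. In a fit over all 49293 probe sets that are not controls all 3 passed (limma adjusted p = 0.0496, 0.0105 and 0.0048), and the gene-level value of 0.13, from the brightest probe set, also passed (limma adjusted p = 0.034). The gene-level call was lost without shCSF2 replicate 2 (0.095), shCSF2 replicate 3 (0.091), shCtrl replicate 1 (0.058), shCtrl replicate 2 (0.092) or shCtrl replicate 3 (0.092), where the values are limma adjusted p. With its probe sets averaged or by the most variable probe set, FST stayed past the threshold, with a log2 fold change of up to 0.30.

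FSTL3, which also binds activins and is itself a SMAD target in many cells, did not pass by any of its 3 probe sets. Its brightest, 11716132_a_at, read 8.81, 8.86 and 8.79 in shCSF2 and 8.77, 8.76 and 8.85 in shCtrl arrays, which overlap. The log2 fold change of FSTL3 was 0.02 ± 0.04 (95% interval -0.07 to 0.12). A second probe set, 11716131_s_at, gave 0.11, with shCSF2 arrays just above shCtrl arrays, and the third, which was dim, gave 0.03.

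The receptor genes moved little. ACVR2B, a type II receptor, was measured by 2 probe sets. Probe set 11727682_at read 6.87, 6.87 and 6.82 in shCSF2 and 6.61, 6.66 and 6.67 in shCtrl arrays, with no overlap. ACVR2B rose 1.16-fold by this probe set (log2 fold change 0.21 ± 0.04, limma adjusted p = 0.0048), in all 16 alternative settings past the threshold. Its other probe set, 11727681_a_at, did not show this, with 6.59, 6.59 and 6.59 in shCSF2 and 6.62, 6.61 and 6.63 in shCtrl arrays. That is a log2 fold change of -0.03 ± 0.03, and the average of both probe sets gave 0.09.

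ACVR2A, the other type II receptor, had 3 probe sets that did not move alike. Probe set 11727163_a_at read 7.36, 7.34 and 7.30 in shCSF2 and 7.04, 6.97 and 7.26 in shCtrl arrays. The groups did not overlap, but shCtrl replicate 3 lay close to the shCSF2 arrays. The log2 fold change of 0.24 ± 0.07 passed in the gene-level fit (limma adjusted p = 0.044) and did not in the fit over probe sets (limma adjusted p = 0.0503). The other probe sets of ACVR2A gave 0.01 and -0.06, and the average of the 3 gave 0.06 (limma adjusted p = 0.20). The call was also lost without shCSF2 replicate 1 (0.11), shCSF2 replicate 2 (0.10), shCSF2 replicate 3 (0.078), shCtrl replicate 1 (0.12) or shCtrl replicate 2 (0.11), as limma adjusted p. Without shCtrl replicate 3 the log2 fold change was 0.33.

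ACVR1B, the type I receptor ALK4, had 5 probe sets, and none passed. The brightest, 11720437_at, read 7.78, 7.72 and 7.79 in shCSF2 and 7.85, 7.74 and 7.83 in shCtrl arrays. These overlap, and the log2 fold change was -0.04 ± 0.04 (95% interval -0.15 to 0.06). The other 4 lay between -0.09 and 0.02, so all 5 were within 0.1 of no change. Over all members but INHBE, 6 of 21 probe sets passed, 4 higher and 2 lower. Of all probe sets, 29.1% were called, 15.3% higher and 13.8% lower. The groups did not overlap in 10 of the 21, against 43.8% of all probe sets.

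**Figure D2:**
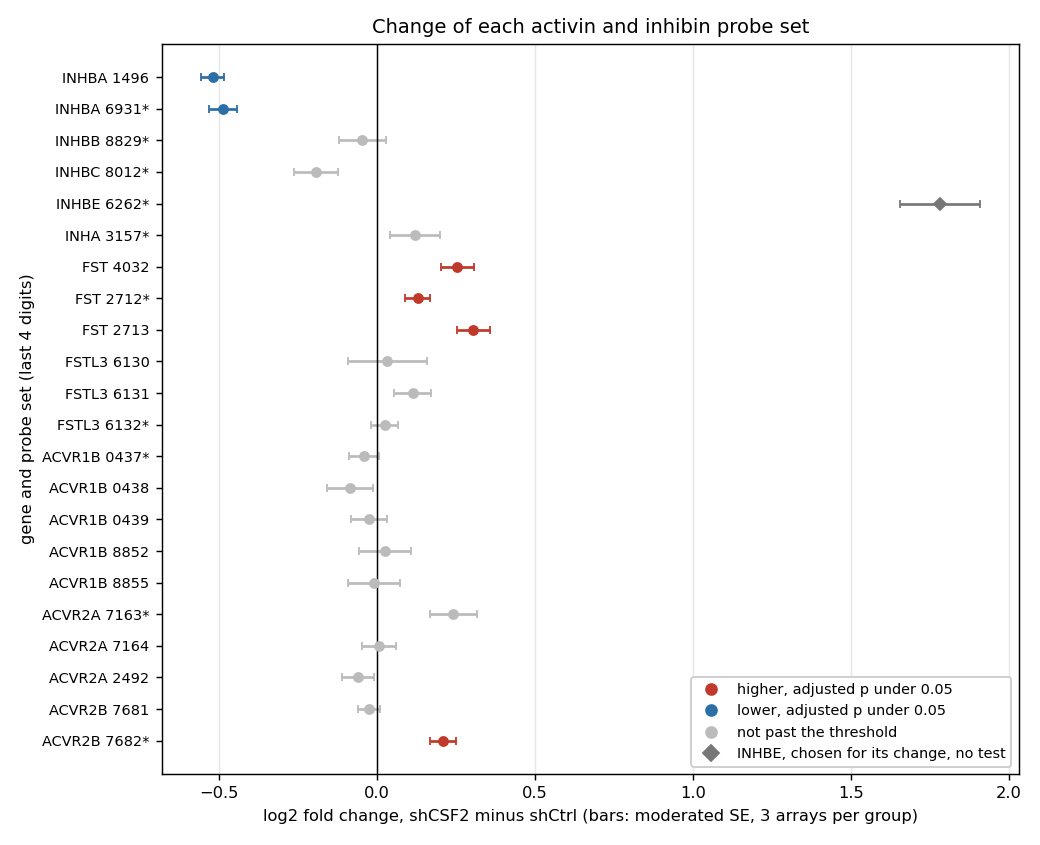
Log2 fold change of shCSF2 minus shCtrl (horizontal axis) with its moderated SE (bars, 3 arrays per group) for each of the 22 probe sets (vertical axis, gene and last digits, asterisk at the probe set that represents the gene). Both INHBA probe sets lie near -0.5 and all 3 of FST to the right of 0, whereas the probe sets of ACVR2A and of ACVR2B disagree among themselves; INHBE, at 1.78, is shown as a diamond because it was chosen for this value.

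Genes that act with the family were taken from lists, and their members were counted in the fit over all genes. A list of 13 other ligands of activin type II receptors also held LEFTY1 and LEFTY2, which are antagonists. Of the 13, 2 rose and 1 fell, beside 32.7% of all genes called. Of the same 13, 7 were dim, which limits what can be seen, so nothing is read from this count. These were GDF11 (0.14 ± 0.04, log2 fold change ± SE), BMP2 (0.12 ± 0.03) and BMP10 (-0.14 ± 0.05). BMP10 passed narrowly (limma adjusted p = 0.049) at low means, 4.92 in shCSF2 and 5.07 in shCtrl arrays. Its only probe set was not called in the fit over probe sets. Of the 3 probe sets of GDF11, 1 was called higher and 1 lower, which leaves its direction uncertain. The count of 3 was 1 without shCSF2 replicate 1, shCSF2 replicate 3, shCtrl replicate 2 or shCtrl replicate 3, and 0 without shCSF2 replicate 2. Myostatin (MSTN), named with its value known, was dim and overlapped between groups.

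Of 9 other receptors and co-receptors, 1 rose and 2 fell, a share near the 32.7% of all genes called. BAMBI, a pseudoreceptor without a kinase domain that dampens TGF-beta and activin signals, rose from 7.91 to 8.38 (0.47 ± 0.03). TGFBR3, betaglycan, the co-receptor through which inhibins bind type II receptors, fell from 8.31 to 7.91 (-0.40 ± 0.04). ACVR1C, which encodes the type I receptor ALK7, fell from 5.58 to 5.17 (-0.41 ± 0.06). All 3 probe sets of TGFBR3 and all 3 of ACVR1C were lower, and BAMBI had 1 probe set. The limma adjusted p of the 3 genes lay between 1.2e-04 and 0.0023. Of the other co-receptors on the list, named with their values known, ENG (0.08 ± 0.05) and IGSF1 (-0.06 ± 0.07) did not pass, although 1 of the 2 IGSF1 probe sets was called lower in the fit over probe sets.

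Of 10 other extracellular antagonists, 5 of them dim, 2 passed, beside the 32.7%. NOG, the BMP trap noggin, rose (0.50 ± 0.08) and FSTL1, a follistatin-like matrix protein, fell (-0.30 ± 0.03). For FSTL1 both probe sets were lower. Among 7 convertases and related proteases that can cut precursors of the family, 0 passed in limma, and 1 had an unadjusted p under 0.05. FURIN gave -0.07 ± 0.03 and PCSK7 gave 0.07 ± 0.04, neither past the threshold.

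Inside the cell, 4 of 16 SMAD2/3 transducers and regulators rose and 2 fell. SMURF2, a ubiquitin ligase that acts on SMADs and their receptors (0.33 ± 0.04), and USP15, a deubiquitinase of the pathway (0.28 ± 0.04, by 4 of its 7 probe sets), rose. TGIF1, a SMAD corepressor, fell (-0.27 ± 0.03). SMAD3, named after its value was seen, passed at -0.17 on its brightest probe set. Of all 5, however, 2 were called lower, and averaging them gave -0.05, which did not pass (limma adjusted p = 0.255). SMAD2 and SMAD4, also named with their values known, did not pass on their brightest probe sets. Of 7 SMAD2 probe sets, however, 4 were called lower, and their average was -0.23 (limma adjusted p = 0.0045). Of 7 SMAD4 probe sets, 5 were called higher and 1 lower, with an average of 0.12 (limma adjusted p = 0.013). The list's median was 0.04, and its share called, 6 of 16, stands beside the 32.7% of all genes.

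Of 21 genes known as SMAD2/3 targets, 3 rose and 9 fell, against 16.7% of all genes higher and 16.0% lower, with a median of -0.13. This list holds INHBA, FST and FSTL3. Without them, 2 of 18 rose and 8 fell, with a median of -0.14. TAGLN, an actin-binding protein (-1.20 ± 0.04), COL1A1, a collagen chain (-0.93 ± 0.05), and NEDD9, an adhesion scaffold (-0.51 ± 0.07), fell most. COL1A1 fell by 1 of its 5 probe sets and gave -0.25 with all averaged. The feedback genes SMAD7 (0.02 ± 0.04) and SKIL (-0.0043 ± 0.049), which SMADs induce directly, did not pass, and were picked for mention with their values known. THY1, the only fibroblast marker of 5 that passed, was lower in the same arrays as TAGLN and COL1A1, as is every gene called lower here. A link between them was not tested.

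A last list held 21 genes induced by the stress factors ATF4 and CHOP, among which INHBE is often counted. Of these, 17 rose and 0 fell, against 16.7% of all genes higher and 16.0% lower, with a median of 0.41, beside -0.03 over all genes. DDIT3, the gene of CHOP, rose by 0.65 ± 0.05, and like the next gene is named after its value was seen. The hormone gene FGF21, like INHBE a stress-responsive liver gene, was dim and gave -0.01 ± 0.07. That these genes were higher was known from earlier results of these data and lends no independent support.

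**Figure D3:**
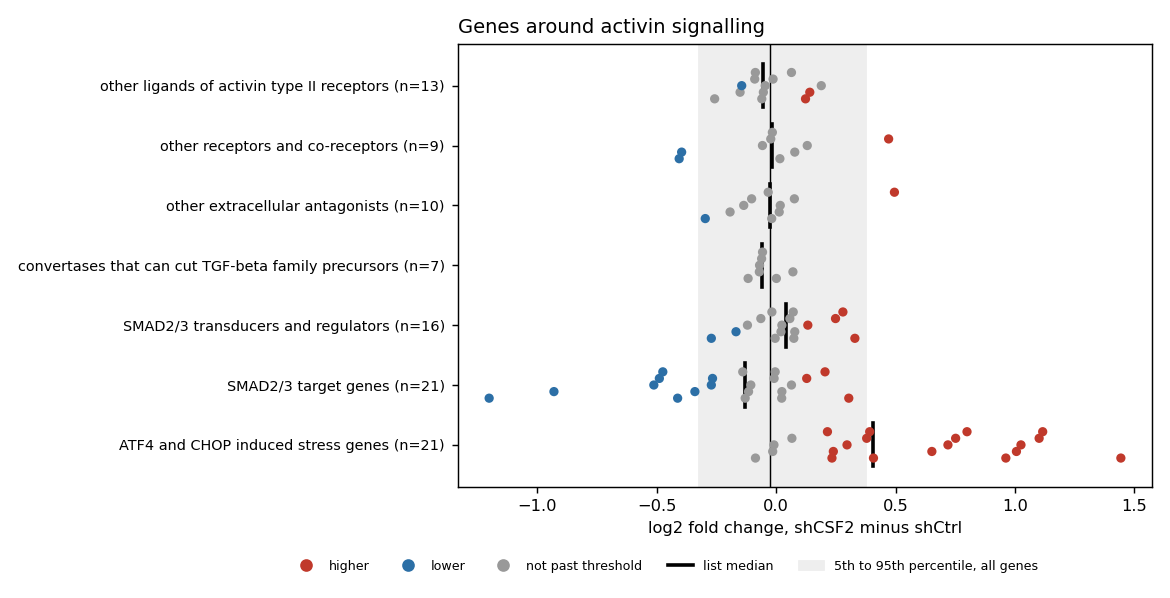
Log2 fold change of shCSF2 minus shCtrl (horizontal axis) of each measured gene of 7 lists (vertical axis), red where higher and blue where lower past the threshold, with the list median as a thick line; the thin line is the median and the grey band the 5th to 95th percentile of all genes. Most ligands, receptors and convertases lie inside the band, SMAD2/3 targets reach to -1.20 and the stress genes reach to 1.44.

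The genes whose pattern was most like that of INHBE were found by the root mean square difference over the 6 arrays, after each gene was centred on its shCtrl mean. The nearest was POLE2, a DNA polymerase epsilon subunit (0.20 on the log2 scale), followed by REEP5, which shapes the endoplasmic reticulum (0.23), the chemokine gene CXCL5 (0.27), the immediate-early gene EGR1 (0.27) and the cystine transporter gene SLC7A11 (0.30). Their log2 fold changes lay between 1.44 and 2.01. Since INHBE had the second largest rise, only genes with a large rise can be near it by this measure. The distances also reflect the spread of INHBE among the shCtrl arrays, which ran from 4.20 to 4.69, whereas CXCL5 ran from 8.23 to 8.25.

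**Figure D4:**
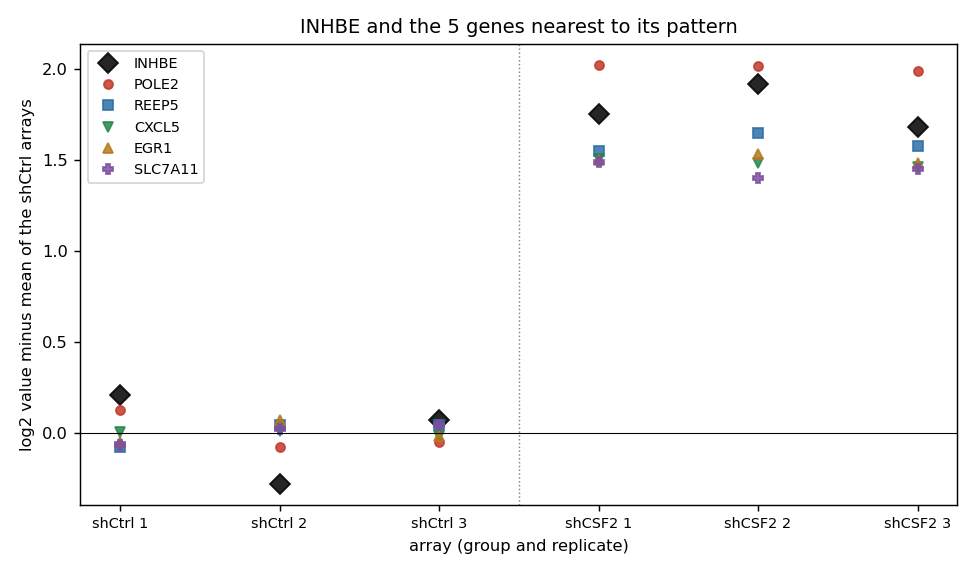
Log2 value minus the mean of the shCtrl arrays (vertical axis) on each array (horizontal axis) for INHBE (black diamonds) and the 5 genes nearest to its pattern. POLE2 lies above INHBE on the 3 shCSF2 arrays and the other 4 below it, and the INHBE points are the most spread among the shCtrl arrays.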

How the data were processed

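Total RNA (200 ng per sample, per the labels' protocols) from 3 shCSF2 and 3 shCtrl samples was hybridised to PrimeView arrays. The authors deposited 1 log2 expression value per probe set and array. Per the submitters' processing notes RMA, oligo and limma were used, with versions and roles not given in the sources used here. Probe-level files were not used here. The platform annotation gave 1 gene symbol for 44988 of 49293 probe sets that are not controls, several for 1832 and no entry for 2473. Symbols were checked against RefSeq (GRCh38.p14), where 27 did not match and 0 changed. The array values have no genome build. Protein sequences were not analysed here.

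The groups were compared in limma 3.58.1 (lmFit, eBayes; R 4.3.3), with no block, over genes and separately over probe sets. No sample was dropped or imputed. On simulated data (18132 genes), 50% of 50 genes with a log2 change of 0.3 and 80% of 50 with 0.5 were recovered. Far more genes, 32.7%, were called in the data, which makes the adjusted threshold easier to pass than in the simulation. The simulation therefore does not give the share of changes missed here. The number of arrays limits the precision. p-values measure the spread between these samples.

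The members and lists were chosen with earlier results of these data known. Named genes were all members, the 3 genes with the largest change among those called in each list (the 2 brightest where none was), and the 5 nearest to INHBE. The ATF4 list is given by counts, and other names, those of marker genes included, were chosen after their values were seen. Same-numbered replicates were not treated as pairs, since the labels do not tie them and their deviations correlated at 0.03 to 0.05. Figures were drawn with matplotlib 3.10.9.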

Additional observations from a re-analysis of the deposited data

How the results depend on the processing

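INHBA, ACVR2B, FSTL3 and ACVR1B kept their direction and their side of the threshold in each alternative run. INHBE was chosen by its change, so its log2 fold changes of 1.64 to 1.89 over 15 alternatives are description only. It cleared the filter at a mean of 5 only through the shCSF2 arrays, with group means of 6.26 and 4.48. The filter at the median over genes left INHBE out. Of 16 alternatives, FST lost its call in 7 and ACVR2A in 9. INHBB, which did not pass, changed sign without shCSF2 replicate 3 (0.019) and without shCtrl replicate 1 (5.3e-04), within -0.10 to 0.019 over the fits that left out 1 array. The 5 members called, INHBE included, became 3 after quantile normalisation again and 3 with the replicate number as a block. There FST and ACVR2A lost their calls, and leaving out 1 array gave 3 to 4. Same-numbered arrays share only a number here, and the block gave 5469 genes called against 5930. Leaving out 1 array gave 4918 to 5142 genes and 6 to 7 of 22 member probe sets called, with INHBE counted. With all arrays 7 of the 22 were called, beside 29.1% of all probe sets. The 3 other ligands called became 1 after quantile normalisation again, 1 with the block and 1 by the most variable probe set, and leaving out 1 array gave 0 to 2. The 3 other receptors called became 5 by the most variable probe set. The 0 of 7 convertases called became 1 after quantile normalisation again, 2 with probe sets averaged and 2 by the most variable probe set. In the same order, these runs called 6057, 6072 and 5822 of 18132 genes. The filter at a mean of 5 kept 6 convertases and called 1, beside 6396 of 12435 genes. The filter at the median over genes kept 3 and called 1, beside 5798 of 9066 genes. The causes were not tested. In the filters both the number of genes adjusted over and the share of them called differ from the main fit. The alternatives of the lists were chosen after seeing the data. The GAPDH difference between groups was 0.02 to 0.03 and that of ACTB -0.0028 to 0.046 when 1 array was left out. Values near the low end of the arrays, as for INHBB and INHA, limit what can be seen.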

Other observations

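In the order of protein-coding genes on chromosome 12 in the RefSeq table, INHBE lies between INHBC and GLI1, and DDIT3, the gene of the stress factor CHOP, is the fourth gene on the GLI1 side. These neighbours were chosen after values of the data were seen. Of the 6 genes on each side, 11 were measured, and in limma 3 were higher and 1 lower in shCSF2 cells, against 32.7% of all genes called. DDIT3 rose by 0.65 ± 0.05 (log2 fold change ± SE), from 8.37 to 9.02, by both of its probe sets. MARS1, which charges tRNA with methionine, rose by 0.27 ± 0.03 and SHMT2, a mitochondrial serine-to-glycine enzyme, by 0.25 ± 0.04. For MARS1, 3 of 5 probe sets were higher and their average was 0.15, and for SHMT2 all 4 were higher. NXPH4, a secreted neurexin ligand, passed at -0.12 on its brightest probe set. In the fit over probe sets neither of the pair was called, and averaging them gave -0.10, which did not pass (limma adjusted p = 0.075). The genes directly beside INHBE did not pass, with INHBC at -0.19 ± 0.07 and GLI1, a Hedgehog transcription factor that was dim, at 0.04 ± 0.05.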
